A study of Homo sapiens with 16 samples.

Results

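RNA-seq counts were examined for 9 genes that sense foreign RNA or carry the interferon signal, DDX58, IFIH1, DHX58, MAVS, EIF2AK2, IRF3, IRF7, IRF9 and STAT2, in control and YEATS2 knockdown (KD) cells. The genes were chosen by name as the core of the cytoplasmic RNA sensing pathway, and their rows were taken from the authors' table of 12676 genes by gene symbol. The table held 7 of the 9 genes, and DHX58 and IRF9 were not analysed here. H1299 is a cell line from a human lung carcinoma, and YEATS2 is a subunit of the ATAC histone acetyltransferase complex. All 4 libraries came from H1299 cells infected with a lentivirus in the presence of polybrene at 8 µg per ml. The virus carried a non-targeting shRNA (shNT) in 2 libraries and an shRNA against YEATS2 (shYEATS2) in the other 2. After 48 h the cells of both groups were selected with puromycin at 2 µg per ml for 4 to 7 days, as the labels give it. Control cells had therefore met virus and drug as well, and no uninfected cells were included in these RNA-seq samples. The study describes the duplicates as independent biological replicates, all of 1 cell line, and the labels of the KD libraries do not name the shRNA.

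Cells detect viral RNA in the cytoplasm through the RIG-I-like receptors, helicases that bind double-stranded RNA or RNA with an uncapped 5′ end. RIG-I (encoded by DDX58) and MDA5 (IFIH1) pass the signal to MAVS, an adaptor on mitochondria, while LGP2 (DHX58) modulates both. MAVS activates the kinases that phosphorylate IRF3 and IRF7, transcription factors that switch on interferon genes. Secreted interferon then acts through its receptor to assemble a complex with STAT2 and IRF9 that binds the interferon-stimulated response element of many promoters. Several sensors, IRF7, IRF9 and STAT2 are themselves known interferon-induced genes, so the pathway can amplify itself. PKR (EIF2AK2) is a separate sensor of double-stranded RNA, which phosphorylates the translation factor eIF2.

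Short stretches of promoter show that the letters of this response element are present near some of the measured genes. The windows of RefSeq on GRCh38.p14, 250 bases before to 50 bases after the start of a gene, were searched on both strands for GAAANNGAAA, the repeated core of the element, and for GAANNGAAA, a shorter form that was added after the windows had been seen. Of the 7 measured genes, 5 had a window, and IRF3, IRF7 and DHX58 had none in the table used. The 3 windows below are shown because each holds at least 1 of the 2 forms, before genes with different values in the counts below. The form is not the same in all, since the DDX58 window holds the shorter one alone and the EIF2AK2 window the longer one alone. The capitals mark the match, each is written 5′ to 3′ on the strand of the gene, and matches to the 2 forms can overlap.
DDX58, chr9:32526380-32526409, minus strand: ggtgcggaggGAAACGAAActagcccgagg
IFIH1, chr2:162318686-162318715, minus strand: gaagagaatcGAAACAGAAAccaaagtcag
EIF2AK2, chr2:37156967-37156996, minus strand: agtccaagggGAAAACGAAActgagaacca
The DDX58 match is to the shorter form and begins 203 bases before the gene's start, the IFIH1 match shown begins 21 bases before it and the EIF2AK2 match begins 6 bases before it. IFIH1 had 3 matches to the longer form in its window. The window of IRF9 held 1 match to the shorter form, and those of MAVS and STAT2 held neither form. Of all 35116 windows, 3.57% held the longer form and 7.66% the shorter one. A match to the longer form is not in itself a match to the shorter one, so the windows with the shorter form need not include the others.

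The 4 libraries held 34718921 to 39417787 reads in the listed genes. Counts of single genes are given after TMM scaling to the mean library size. The test for each gene was the quasi-likelihood F test of edgeR, adjusted by the Benjamini-Hochberg method over all 12676 genes, and a gene was called at a false discovery rate (FDR) under 0.01. Every FDR below comes from it unless another test is named. YEATS2 itself stood at 4482 and 4104 scaled reads with shNT and at 665 and 673 with shYEATS2, so the libraries matched their labels. The share of all genes called higher in shYEATS2 was 12.9% (1630 genes) and the share called lower was 12.5% (1581 genes), 25.3% in all. With scaling by total counts the split was 2363 higher and 1166 lower, and the median of the log2 fold changes over the whole table moved from -0.0019 to 0.12. As to the cell type, the epithelial keratin genes KRT8 and KRT18 and the mesenchymal gene VIM were abundant, and EPCAM, CDH1 and NKX2-1 had no row in the table. Of 7 leukocyte markers, 6 including PTPRC, CD14 and CD3E had no row, and ITGAM was called higher (log2 fold change 1.35, FDR 0.00613, with 136 to 507 scaled reads in the libraries). Of 6 fibroblast and endothelial markers only PDGFRB had a row, with 8.61 to 179 scaled reads, and it was called higher (log2 fold change 3.21, FDR 0.00757), though it reached the table's minimum of 101 reads in shYEATS2 alone. The part of other cells in the results was not tested. In bulk RNA, a change in the number of cells that express a gene and a change in RNA per cell cannot be told apart.

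Among the 7 measured genes, STAT2 rose and none fell at the FDR threshold, and an unadjusted p under 0.05 was found in 5 of the 7, all higher, against 56.5% of all genes in either direction. DDX58, IFIH1 and IRF7 had larger log2 fold changes than STAT2 (0.97 to 1.12), but their FDR values of 0.0108 to 0.0134 lay just above the threshold. The values of MAVS (0.35), EIF2AK2 (0.071) and IRF3 (-0.19) were smaller, and these genes did not pass either. In 5 of the 7 genes both KD libraries lay above both control libraries, which held for 39.7% of all genes, and in IRF3 both lay below, which held for 39.8%. The median log2 fold change of the 7 genes was 0.71, against -0.0019 for all genes. Every one of the 7 had at least 239 reads in every library, so none was listed through 1 group alone.

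**Figure D1:**
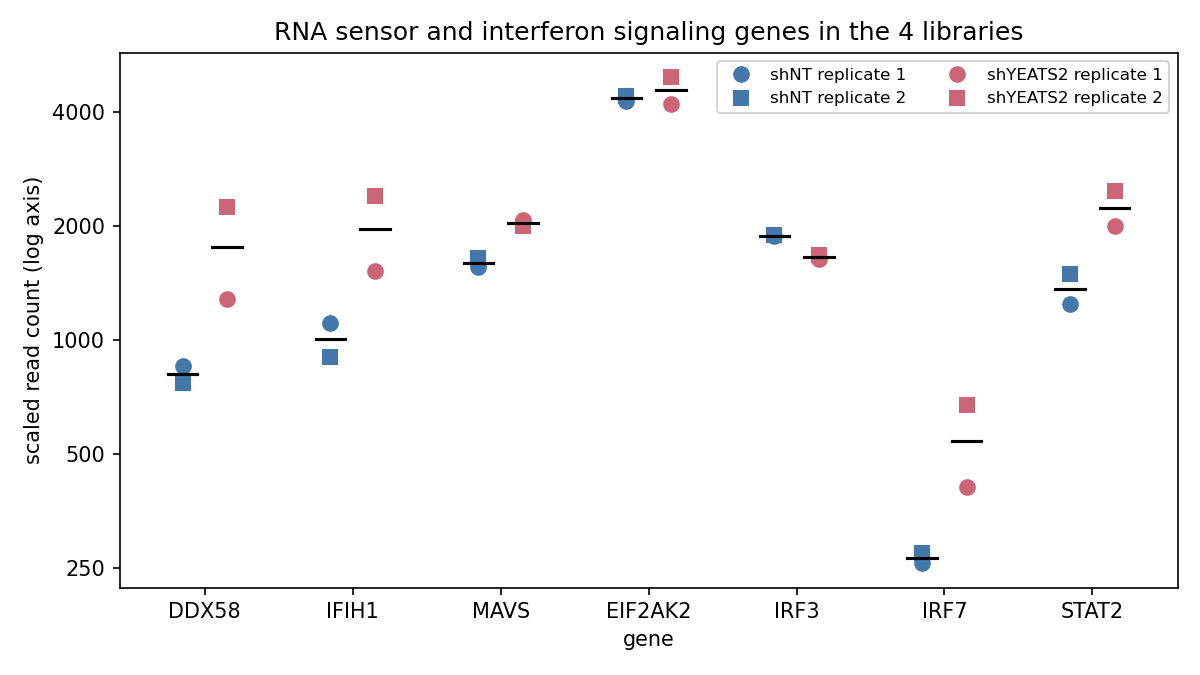
Scaled read counts (log axis) of the 7 measured genes in each library, with blue for shNT, red for shYEATS2, circles for replicate 1, squares for replicate 2 and a black line for each group's mean. For DDX58, IFIH1, IRF7 and STAT2 both red points lie above both blue ones and the red square is the higher, whereas the EIF2AK2 points overlap.

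The RIG-I-like receptors come first in the pathway. DDX58, which encodes RIG-I, the sensor of RNA with 5′ triphosphate ends, had 855 and 771 scaled reads with shNT and 1283 and 2239 with shYEATS2. The groups did not overlap, and shYEATS2 replicate 2 stood well above replicate 1. The means were 813 ± 59.5 and 1761 ± 676 (SD, n = 2), which gave a log2 fold change of 1.12 (standard error 0.25) at an FDR of 0.0108. Against the mean of the controls, the gene was 1.58 times as high in KD replicate 1 and 2.75 times in KD replicate 2. DDX58 (ENSG00000107201) lies on the minus strand of chromosome 9 from 32455300 to 32526206 in GRCh37. In the GENCODE annotation used here, 43.2% of its exon bases are also part of another protein-coding model on the same strand, ENSG00000288684, and whether such reads were counted depends on the authors' annotation, which is not given in the sources used here.

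IFIH1 encodes MDA5, the sensor of long double-stranded RNA. It had 1106 and 901 scaled reads with shNT and 1523 and 2406 with shYEATS2, so it too was highest in KD replicate 2 without overlap between the groups. It had a log2 fold change of 0.97 (standard error 0.22, FDR 0.0119), from means of 1004 ± 145 and 1964 ± 624 (SD, n = 2). The ratio to the control mean was 1.52 in KD replicate 1 and 2.40 in KD replicate 2. IFIH1 (ENSG00000115267) lies on chromosome 2 from 163123584 to 163175194 in GRCh37, on the minus strand, and no other annotated gene overlaps it.

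The adaptor downstream of both receptors differed less. MAVS had 1556 and 1645 scaled reads with shNT and 2081 and 2005 with shYEATS2. The KD libraries were close to each other and both above the controls, with ratios to the control mean of 1.30 and 1.25. Its log2 fold change was 0.35 (standard error 0.09, FDR 0.0206). MAVS (ENSG00000088888) lies on chromosome 20 from 3827446 to 3856770 in GRCh37. Its log2 fold change was 0.47 with scaling by total counts, where the FDR of 0.00704 passed the threshold.

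The PKR gene, EIF2AK2, had 4289 and 4421 scaled reads with shNT and 4208 and 4942 with shYEATS2. KD replicate 1 lay below both controls and KD replicate 2 above both, so the groups overlapped. At an FDR of 0.608 the log2 fold change was 0.071 (standard error 0.11), and it was -0.048 without shYEATS2 replicate 2. EIF2AK2 (ENSG00000055332) lies on chromosome 2 from 37326353 to 37384665 in GRCh37, and 3.63% of its exon bases overlap a pseudogene on the opposite strand. The longer form of the response element printed above stood before this gene, at 0.966 and 1.13 times the control mean in the KD libraries. The longer form also stood before IFIH1, at 1.52 and 2.40 times. The window of DDX58, at 1.58 and 2.75 times, held the shorter form alone. Any part of these letters in the values was not tested.

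IRF3 and IRF7, the kinases' targets that switch on interferon genes, had values on opposite sides of the controls, a difference that was not tested. IRF3, which most cells hold ready at all times, had 1881 and 1894 scaled reads with shNT and 1632 and 1678 with shYEATS2. Both KD libraries were below both controls by a small margin, and the log2 fold change of -0.19 (standard error 0.09, FDR 0.123) did not pass. IRF3 (ENSG00000126456) lies on chromosome 19 from 50162826 to 50169132 in GRCh37, and 19.3% of its exon bases overlap BCL2L12 on the opposite strand, which had a log2 fold change of -0.41 (FDR 0.0242). The part of shared reads in the IRF3 value was not tested.

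IRF7, which is known as the interferon-induced amplifier of the response, had the lowest scaled counts of the 7 genes. It had 257 and 274 scaled reads with shNT and 408 and 674 with shYEATS2. The controls were close together, and the KD libraries lay above them at 1.53 and 2.53 times their mean. This was a log2 fold change of 1.03 (standard error 0.24, FDR 0.0134), with group means of 266 ± 12.2 and 541 ± 188 (SD, n = 2). IRF7 (ENSG00000185507) lies on chromosome 11 from 612553 to 615983 in GRCh37, with no overlapping gene.

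STAT2 is the subunit through which interferon-specific transcription is activated once IRF9 binds DNA. It had 1242 and 1492 scaled reads with shNT and 2002 and 2469 with shYEATS2, and the groups did not overlap. The KD libraries were 1.46 and 1.81 times the control mean. Means of 1367 ± 177 and 2235 ± 331 (SD, n = 2) gave a log2 fold change of 0.71 (standard error 0.14) at an FDR of 0.00765. Both the fold and its standard error were smaller than those of DDX58. The call was lost without shNT replicate 1 (log2 fold change 0.58, FDR 0.0357) and without shYEATS2 replicate 2 (0.55, FDR 0.0207). STAT2 (ENSG00000170581) lies on chromosome 12 from 56735381 to 56753987 in GRCh37. The genes whose pattern over the 4 libraries was closest to that of STAT2, by Euclidean distance of centred log2 values, were VWDE (0.0355), CPT2 (0.0375) and SLC30A4 (0.0381).

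The calls of DDX58, IFIH1 and IRF7 turned on the test, since their FDR values lay near 0.01. All 3 passed with the exactTest function of edgeR, the test of the study, at FDR values of 7.45e-05, 0.000137 and 0.000328, and with DESeq2. Both of these tests called more genes over the whole table than the main test did. Of all 12676 genes, exactTest called 2596 higher and 2497 lower and DESeq2 2159 and 2190, against 1630 and 1581. MAVS passed with exactTest (FDR 0.00825) but not with DESeq2 (FDR 0.0228). EIF2AK2 and IRF3 passed in none of the settings tried. Without shYEATS2 replicate 2, the log2 fold changes were 0.66 for DDX58, 0.60 for IFIH1 and 0.62 for IRF7. Without shYEATS2 replicate 1 they were 1.46, 1.26 and 1.34. The value of IFIH1 was 1.12 without shNT replicate 1.

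The KD libraries thus differed in how far DDX58, IFIH1, IRF7 and STAT2 stood above the controls, and the cause was not tested. YEATS2 itself stood at 665 and 673 scaled reads in these libraries. KD replicate 2 exceeded replicate 1 by 1.75 times for DDX58, 1.65 times for IRF7, 1.58 times for IFIH1 and 1.23 times for STAT2. The ratio was 1.17 for EIF2AK2, 1.03 for IRF3, 0.964 for MAVS and 1.01 for YEATS2. A ratio of at least 1.5 was found in 3 of the 7 genes and in 318 of all 12676 genes (2.51%). Genes that rose in general also stood further from the controls in replicate 2. The ratio was at least 1.5 in 104 of the 1630 genes called higher (6.38%), whose median ratio was 1.13, and in 160 of the 1536 genes (10.4%) with both KD libraries at least 1.5 times the control mean, as in DDX58, IFIH1 and IRF7. Among 26 interferon-induced effector genes in the table, 14 had such a ratio, and the list was written with earlier results known. The table lists genes with at least 101 reads in some library, so a gene low in the controls was listed only if it was high in a KD library. Of the 26 effectors, 7 were listed through the KD libraries alone, 5 of them through replicate 2 alone. Among genes with 101 reads in a control library, which all 7 measured genes had, the ratio was at least 1.5 in 8 of 19 effectors (42.1%), 168 of 11981 genes (1.40%), 42 of 1406 called higher (2.99%) and 62 of 1113 (5.57%) with both KD libraries at least 1.5 times the control mean. A difference between 2 replicates of a group has no test here.

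**Figure D2:**
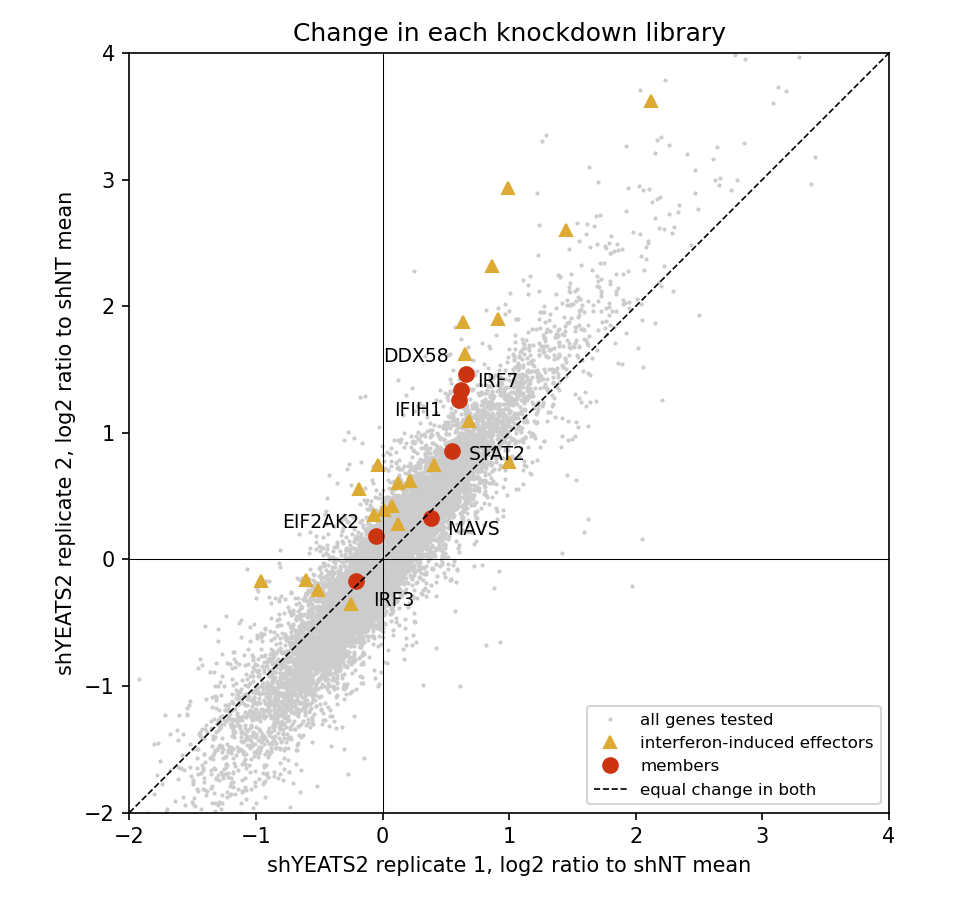
The log2 ratio to the shNT mean in shYEATS2 replicate 1 (horizontal axis) and replicate 2 (vertical axis) for all genes tested (grey), the interferon-induced effectors (yellow triangles) and the 7 measured genes (red). DDX58, IRF7 and IFIH1 lie above the dashed line of equal change, at 0.60 to 0.66 in replicate 1 and 1.26 to 1.46 in replicate 2, whereas MAVS and IRF3 lie near it (96 genes, 4 of them effectors, lie outside the range drawn).

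Levels between genes were compared as RPKM, the TMM-scaled reads per kb of exon and per 1e6 reads of the library. In the shNT libraries, IRF3 was the most abundant of the 7 at 13.6 ± 0.07 (SD, n = 2), followed by EIF2AK2 at 10.8 ± 0.23. IFIH1 followed at 5.27 ± 0.76, STAT2 at 4.02 ± 0.52 and MAVS at 3.73 ± 0.15. IRF7 at 2.79 ± 0.13 and DDX58 at 2.16 ± 0.16 were the lowest, and the median of all genes was 6.03. The ranges of STAT2 and MAVS overlapped, and those of all other neighbours in this order did not. In the shYEATS2 libraries, IFIH1 at 10.3 ± 3.28 overlapped the ranges of EIF2AK2 (10.4 to 12.3 in single libraries) and IRF3 (11.8 to 12.1). IFIH1 stood at 7.99 in shYEATS2 replicate 1, below both of these genes, and at 12.6 in replicate 2, so it reached their levels in replicate 2 alone. Union exon length counts every annotated isoform, so these levels are approximate, above all for DDX58.

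**Figure D3:**
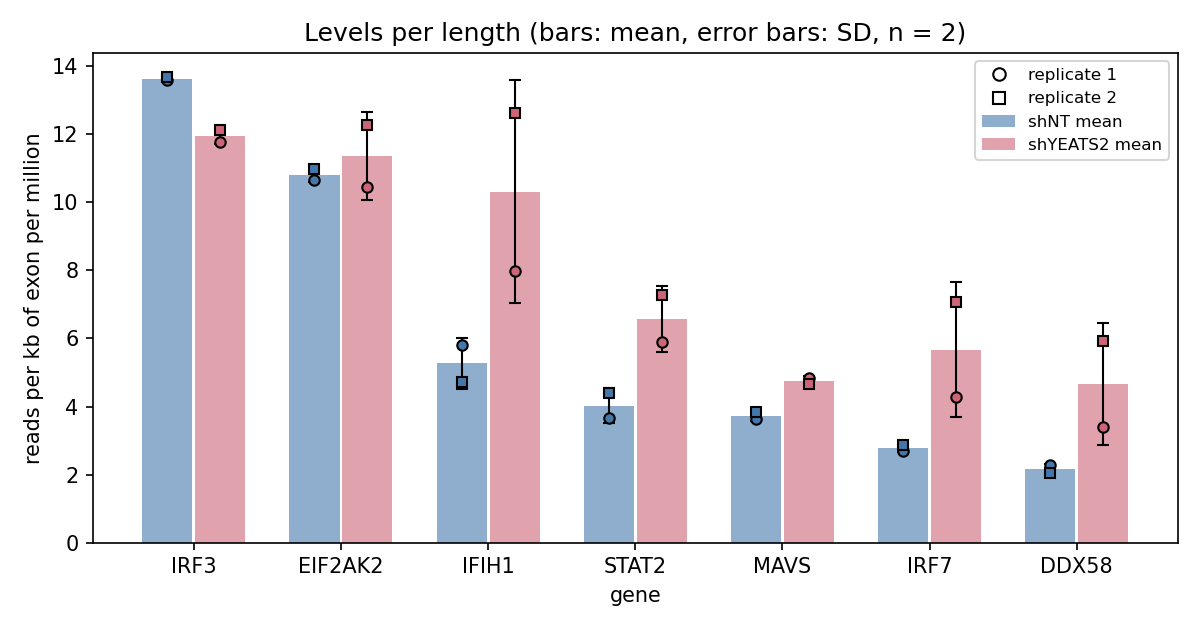
Levels in RPKM (TMM-scaled reads per kb of exon, relative to library size) for the 7 measured genes, ordered by the shNT mean, with bars for group means, error bars for the SD (n = 2) and points for single libraries. IRF3 and EIF2AK2 are at 10.8 to 13.6 in shNT, and IFIH1 goes from 5.27 to 10.3 in shYEATS2, with 7.99 in replicate 1 and 12.6 in replicate 2.

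The other genes of the pathway were read from lists written by function. The counts called in each list are to be read beside the shares of all genes, 12.9% higher and 12.5% lower. Among 17 measured cofactors of the receptors and other nucleic acid sensors, 3 rose and 1 fell, with a median log2 fold change of 0.11. ZNFX1, a helicase-like RNA sensor that works with MAVS, had 2409 and 1853 scaled reads in shNT and 6196 and 8020 in shYEATS2 libraries (log2 fold change 1.74, FDR 0.00116). This was the largest called rise in that list, and the KD libraries lay above the controls without overlap. TMEM173, which encodes the DNA-sensing adaptor STING, had 299 and 460 scaled reads in shNT and 695 and 1026 in shYEATS2 libraries (1.18, FDR 0.00993). NLRX1, a mitochondrial protein reported to restrain MAVS, had a log2 fold change of 0.74 (FDR 0.00335). TRIM25, the ubiquitin ligase known for activating RIG-I, fell by 0.57 on the log2 scale (FDR 0.00731), from 6965 and 6979 to 5115 and 4290 scaled reads. RNF135, another ligase of RIG-I, had a value of 0.33 (FDR 0.0747) and did not pass. ADAR, which edits double-stranded RNA so that MDA5 does not see it as foreign, was at 0.03 (FDR 0.843). Of these calls, that of ZNFX1 held without any 1 library. NLRX1 was not called without shNT replicate 1 (log2 fold change 0.66), TMEM173 without shNT replicate 1 (0.90) or shYEATS2 replicate 2 (0.87), and TRIM25 without shNT replicate 1 (-0.57), shNT replicate 2 (-0.57) or shYEATS2 replicate 2 (-0.45).

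Between MAVS and the IRFs stand the TRAF ligases and the kinases TBK1 and IKKε. Of 16 such genes none rose and 1 fell, and the median was 0.055. An unadjusted p under 0.05 was found in 6 of the 16, against 56.5% of all genes. The gene that fell was CHUK, which encodes IKKα of the NF-κB kinase, with 1695 and 1680 scaled reads in shNT and 867 and 743 in shYEATS2 libraries (log2 fold change -1.07, FDR 0.00129), and its call held without any 1 library. TBK1, the kinase of IRF3, had 2762 and 2535 against 3006 and 3157 scaled reads (0.22, FDR 0.106). The highest ratio of KD replicate 2 to replicate 1 in this list was 1.22.

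PKR acts with partners and shares its substrate with other kinases. Of 9 such genes 1 rose and none fell, with a median of 0.14. PPP1R15A, which encodes GADD34, the regulatory subunit that directs dephosphorylation of eIF2, had 1904 and 2113 scaled reads in shNT and 3242 and 4380 in shYEATS2 libraries (0.92, FDR 0.00437). Its call was lost without shNT replicate 1 (0.85, FDR 0.0131). EIF2S1, the phosphorylated subunit of eIF2, had a log2 fold change of -0.55 (FDR 0.0143), and DNAJC3, an inhibitor of PKR, had -0.50 (FDR 0.0127), so neither passed. With exactTest 3 of the 9 were called lower, where that test called 2497 of all 12676 genes lower, against 1581 in the main test.

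On the interferon side, the genes of the interferons listed, IFNB1, IFNA1, IFNE, IFNK and IFNL1, had no row in the table and were not analysed here. Of 10 measured receptor, JAK and STAT genes, 2 rose and 1 fell, with a median of 0.29. IL10RB, a receptor subunit shared by lambda interferons and interleukin-10, had 1002 and 866 against 1372 and 1458 scaled reads (0.60, FDR 0.00678). JAK1, the kinase at every interferon receptor, had 6740 and 6501 against 9136 and 10136 (0.54, FDR 0.00559). Both calls were lost without shNT replicate 1, shNT replicate 2 or shYEATS2 replicate 2, where the log2 fold changes were 0.50 to 0.70 for IL10RB and 0.47 to 0.56 for JAK1. STAT3 fell from 3372 and 3731 to 1943 and 2056 scaled reads (-0.83, FDR 0.00172), and its call held without any 1 library.

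Of the other IRF genes, IRF1 and IRF2 were measured. IRF1, an activator that interferons induce, had 670 and 529 against 915 and 1008 scaled reads (log2 fold change 0.68, FDR 0.00962). IRF2, which competes with IRF1 for the same sites, had -0.38 (FDR 0.0273) and did not pass. The call of IRF1 was lost without shNT replicate 2 (0.52) or shYEATS2 replicate 2 (0.61). Among 6 feedback genes, PTPN1, a phosphatase that acts on JAK kinases, rose (0.79, FDR 0.00237), and its call held without any 1 library. USP18, an interferon-induced inhibitor of the receptor, had 300 and 255 against 280 and 389 scaled reads and overlapped between the groups (FDR 0.289).

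The interferon-induced effectors, which the pathway acts upon, were represented by 26 genes of a list of 40. Of these 4 rose and none fell, where 12.9% of all genes were called higher and 12.5% lower. However, OAS2, OASL, ISG20, IFI44, BST2, TRIM22 and CCL5 were listed through the KD libraries alone and had to be higher there. Among the other 19, 2 rose and none fell. Of all 11981 genes with 101 reads in a control library, 1406 rose and 1581 fell. The median log2 fold change of the 19 was 0.38, against -0.035 over these 11981 genes. It was 0.74 over the 26 (the same with the 2 genes at or under 3 reads in both controls set at their bound). IFIT2, which encodes an RNA-binding antiviral protein, had 76.4 and 113 against 412 and 1164 scaled reads (3.06, FDR 0.00405). The others were IFIT3 (2.14) and, of those listed through the KD libraries alone, IFI44 (3.56) and OASL, with 0 and 2 reads in controls against 78.6 and 369 scaled reads in the KD cells. The calls of IFIT2 and IFIT3 held without any 1 library. IFI44 was not called without shNT replicate 1 (3.18) or shYEATS2 replicate 2 (2.43), and OASL did not pass the count filter without either KD library. With exactTest 13 of the 26 were called higher, where that test called 2596 of all 12676 genes higher, against 1630 in the main test. How many of the 13 were listed through the KD libraries alone, and so had to be higher there, was not counted. Without shYEATS2 replicate 2 the log2 fold changes were 2.12 for IFIT2 and 1.45 for IFIT3.

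**Figure D4:**
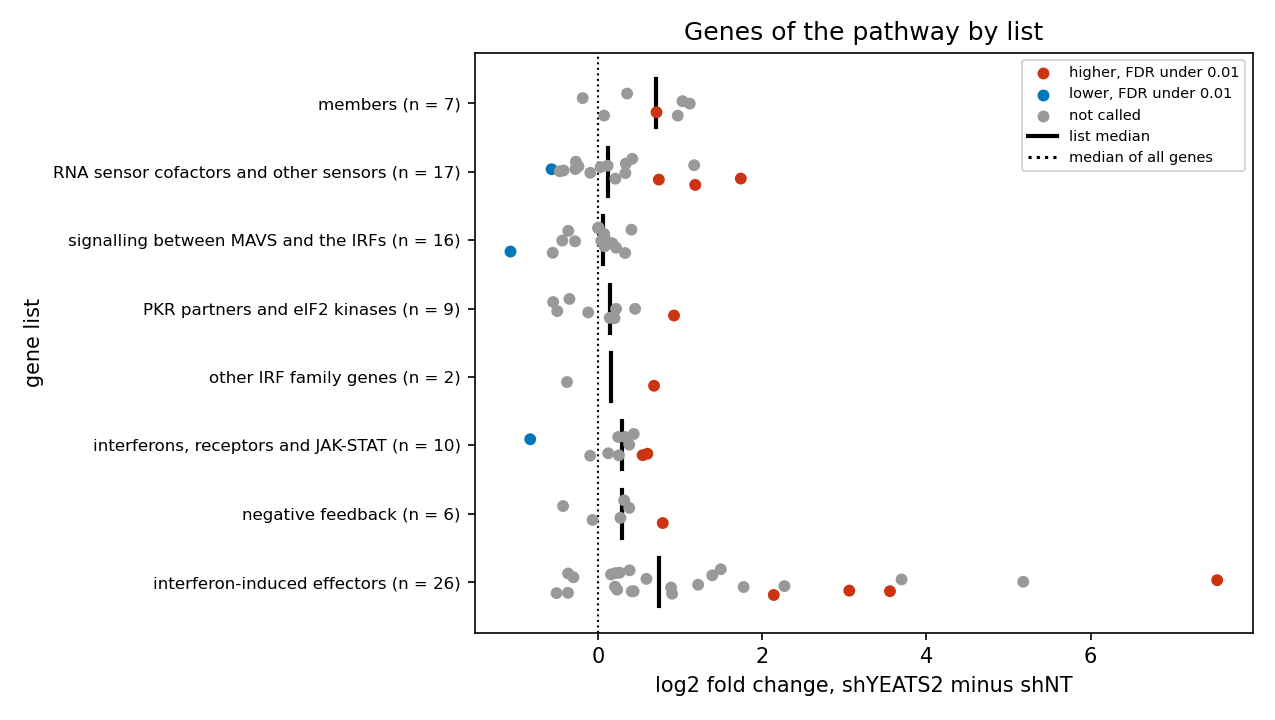
Log2 fold change (shYEATS2 minus shNT) of every measured gene in each list, coloured by its call at an FDR under 0.01, with a black bar at the list median and a dotted line at the median of all genes. The medians of the 7 members (0.71) and of the effectors (0.74) lie to the right of those of the other lists, which are between 0.055 and 0.29, but the effector median is 0.38 without the 7 effectors listed through the KD libraries alone, and the points furthest right among the effectors are genes with 0 to 2 reads in controls, whose fold depends on the prior count.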

How the data were processed

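RNA-seq of 4 H1299 libraries was used, and the ChIP-seq samples of the series were not used here. According to the study's methods, the RNA-Seq unified mapper placed reads on hg19 and HTSeq counted them at default parameters. The authors deposited raw read counts per gene. The TruSeq mRNA kit does not mark strand, so reads of overlapping genes on opposite strands cannot be told apart. The table lists genes with at least 101 reads in some library. The deposited log2 fold changes, p-values and FDR values of the authors' edgeR comparison were not used.

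Genes with at least 10 reads in 2 libraries were tested, which all 12676 met, with edgeR 4.0.16 (R 4.3.3), TMM scaling and the quasi-likelihood test without a replicate block, at an FDR under 0.01. DESeq2 1.42.0, limma 3.58.1 with a pseudocount of 1, other scalings, filters and thresholds, a replicate block and each library left out were alternatives. With a library left out, 1 group has 1 library, which is assumed to vary like the others. The common biological coefficient of variation was 0.107.

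Exon lengths and GRCh37 positions came from GENCODE, to which 12465 of 12676 identifiers (98.3%) matched, and promoter windows from RefSeq on GRCh38.p14. Genes named are the 9 members, YEATS2, called genes with the largest changes in each list (at most 5 higher, 3 lower), overlapping genes and the 3 nearest patterns of called members. RNF135, ADAR, TBK1, EIF2S1, DNAJC3, IRF2, USP18 and the genes of the last paragraph of the closing section were named after their values had been seen. A planned comparison of protein sequences was not run. The members and lists were chosen with earlier results of these data known.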

Additional observations from a re-analysis of the deposited data

How the results depend on the processing

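Against 1 of the 7 measured genes called higher, total-count scaling called 5, upper-quartile scaling 3, exactTest 5, DESeq2 4 and an FDR under 0.05 called 5, and no setting called one lower. The log2 fold changes that then passed were, with total counts, 1.24 for DDX58, 1.09 for IFIH1, 0.47 for MAVS and 1.15 for IRF7. With the upper quartile they were 1.14 for DDX58 and 0.99 for IFIH1. With exactTest they were 1.115 for DDX58, 0.97 for IFIH1, 0.35 for MAVS and 1.025 for IRF7, with DESeq2 1.12 for DDX58, 0.97 for IFIH1 and 1.03 for IRF7, and at an FDR under 0.05 1.12, 0.97, 0.35 and 1.03 in the same order. Over all alternatives the FDR of DDX58 ran from 7.58e-06 to 0.0211, that of IFIH1 from 3.09e-05 to 0.0297, that of IRF7 from 0.000318 to 0.0333, that of MAVS from 0.00704 to 0.159 and that of STAT2 from 5.14e-05 to 0.0357. DESeq2 size factors, limma-trend, no filter and a mean count of at least 100 moved none of the calls of the 7 genes.

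The numbers of effectors called higher were 8 with total counts, 7 with the upper quartile, 13 with exactTest, 10 with DESeq2 and 13 at an FDR under 0.05 (4 in the report). Among the effectors with at least 101 reads in a control library, an alternative chosen after seeing the data, 2 were called higher. Other sensors called lower numbered 0 with total counts, 2 with exactTest and 4 at an FDR under 0.05, where 5 were called higher. Signalling genes called lower numbered 2 with the upper quartile, 3 with exactTest, 2 with DESeq2 and 4 at an FDR under 0.05, where 1 was called higher. Of the PKR partners 3 fell with exactTest, 2 with DESeq2 and 3 at an FDR under 0.05. Of the feedback genes 1 fell with exactTest, with DESeq2 and at an FDR under 0.05, where 2 rose. At that threshold 4 receptor and JAK-STAT genes rose and 1 other IRF gene fell. Over all genes the upper quartile called 1820 higher and 1602 lower, DESeq2 2159 and 2190, exactTest 2596 and 2497, and an FDR under 0.05 called 3093 and 3011. The cause of these shifts was not tested, apart from the looser threshold.

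In the labels, replicates of the groups share only a number. Whether libraries with the same number were handled together is not given, and the main test leaves such a pairing out. The replicate differences correlated at 0.403 over 12676 genes between the groups. With the replicate block 4 measured genes were called higher, with log2 fold changes of 1.07 for DDX58, 0.94 for IFIH1 and 0.99 for IRF7. The block called 2742 genes higher and 2715 lower, 14 effectors higher, 3 other sensors, 3 signalling genes, 3 PKR partners and 1 feedback gene lower, and 2 feedback genes higher.

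With each library left out, genes called higher ranged from 775 (without shNT replicate 1) to 1971 (without shYEATS2 replicate 1) and genes called lower from 850 to 2024 (the same libraries). Measured genes called higher ranged from 1 to 4, other sensors from 1 to 4 higher and 0 to 3 lower, signalling genes from 0 to 1 higher and 1 to 3 lower, and PKR partners from 0 to 1 in each direction. Other IRF genes called higher ranged from 0 to 1, receptor and JAK-STAT genes from 0 to 4, and effectors from 2 to 11, with 0 to 1 lower, while feedback genes called lower ranged from 0 to 1. In all of these lists the highest count in the report's direction was reached without shYEATS2 replicate 1. Log2 fold changes ranged from 0.66 to 1.46 for DDX58, 0.60 to 1.26 for IFIH1, 0.31 to 0.39 for MAVS, -0.048 to 0.18 for EIF2AK2, -0.21 to -0.17 for IRF3, 0.62 to 1.34 for IRF7 and 0.55 to 0.85 for STAT2. EIF2AK2 alone changed sign, at -0.048 without shYEATS2 replicate 2. With the shorter promoter motif, added after seeing the data, 2 measured genes had a match, DDX58 and IFIH1. The longer one also matched 2, but these were IFIH1 and EIF2AK2.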

Other observations

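The promoter windows allow a look at all genes with the letters of the interferon-stimulated response element. Of the 9086 genes of the table with a window, 237 held GAAANNGAAA on either strand. Their median log2 fold change was 0.009, and 13.5% were called higher and 13.9% lower, against 12.6% and 13.0% of the 8849 genes without it. A level in shYEATS2 replicate 2 at least 1.5 times that in replicate 1 was found in 24 of the genes with the motif (10.1%) and in 163 of those without it (1.84%). Of the 24, 11 were measured members of the sensing pathway or effectors, as was 1 of the 163. The members and effectors were listed with earlier results of these data known. With the shorter motif the shares were 4.22% of 521 genes and 1.93%. Among genes with 101 reads in a control library, which leaves out those listed through the KD libraries alone, the shares were 7.21% of 222 genes with the longer motif and 1.04% of 8523 without it, and 2.83% of 494 and 1.10% of 8251 for the shorter one. How many members or effectors stand behind these last shares was not counted. All shares here are descriptions of 2 libraries, with no test.

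Among effectors that did not pass, chosen after their values were seen, ISG15 and IFI6 were, like the sensors, highest in shYEATS2 replicate 2. ISG15, a ubiquitin-like modifier, had 664 and 760 scaled reads with shNT and 1117 and 2193 with shYEATS2 (FDR 0.0146, quasi-likelihood test of edgeR). IFI6 had 261 and 369 against 575 and 1575 (FDR 0.017). The oligoadenylate synthetase gene OAS3 had 1414 and 1252 against 687 and 1186 (log2 fold change -0.51, FDR 0.118), with both KD libraries below the controls. TRIM21 had 320 and 371 against 290 and 271 (-0.30, FDR 0.135).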
